A study of Mus musculus with 14 samples.

Results

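The long noncoding RNA genes Malat1, Neat1, Gas5, Snhg1, Snhg6, Snhg12 and Kcnq1ot1 were followed across all libraries of the series. They are 7 of the 55335 genes in the deposited count table and 7 of its 9963 genes typed as long noncoding RNA (lncRNA), and each was matched by its gene name. The set was chosen by the Malat1 level, which was higher after radioimmunotherapy with a non-targeting IgG than after external irradiation, so that contrast is described here without a test. Ranked by mean CPM (counts scaled to a common library size with TMM factors) over all libraries, Malat1 was first among the lncRNA genes, Gas5 was 9th, Neat1 20th, Kcnq1ot1 74th, Snhg1 136th, Snhg6 323rd and Snhg12 618th. Ranks differed between groups: in untreated mice Malat1 was second, after Gm11505 (2536.2 against 2919.7 CPM), and in each treated group it was first. The name "abundant" therefore fits Malat1, Gas5 and Neat1 and describes Snhg6 and Snhg12 less well.

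The 14 libraries came from bone marrow cells of reporter mice of the genotype Cdh5 CRE Rosa26 TdTomato, in which a recombinase expressed from the promoter of the endothelial cadherin gene Cdh5 turns on a red fluorescent protein. All groups carried this genotype, and the sorted cells were negative for lineage markers and CD45 and positive for the reporter. The groups were untreated mice (4 libraries), mice given 500 cGy total body irradiation from a caesium source (TBI, 5 libraries), mice given 20 µCi of radioimmunotherapy on a non-targeting IgG (IgG RIT, 3 libraries) and mice given 20 µCi of radioimmunotherapy directed to the leukocyte surface protein CD45 (CD45 RIT, 2 libraries). The series names astatine-211, an emitter of alpha particles, for the CD45-targeted agent. Cells were collected 8 days after treatment. The labels number the replicates but do not say whether each was a separate animal or pool, so p-values measure only the spread between these libraries, which may be technical.

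Total counts were between 16412779 and 31077588 per library. The number of genes with at least 1 count was 23409 to 25399 in untreated, 22123 to 26752 in TBI and 21660 to 22222 in IgG RIT libraries, against 20994 and 17700 in CD45 RIT replicates 1 and 2. Marker sums are given as CPM of the total count of each library. Endothelial markers (15 genes, all in the table) summed to 109 to 165 CPM in untreated, 43.6 to 109.5 in TBI, 49.3 to 58.0 in IgG RIT and 68.4 and 187.6 in CD45 RIT libraries. Cdh5, Tek, Sox17 and Stab2 had 0 counts in all IgG RIT libraries, and Cdh5, Tek, Sox17, Stab2, Emcn and Tie1 had 0 counts in both CD45 RIT libraries. Markers of red cell precursors (11 of 12 listed genes found) summed to 8018 to 14996 CPM in untreated libraries, 25950 to 45068 in 4 TBI libraries and 176932 in TBI replicate 6, 134656 to 143033 in IgG RIT and 192152 and 47412 in CD45 RIT replicates 1 and 2. Stromal markers (13 genes) summed to 3255 to 8281 CPM in untreated, 948 to 2239 in TBI, 389 to 1171 in IgG RIT and 39258 and 59787 in CD45 RIT libraries, and macrophage markers (9 genes) to 145 to 197, 23.8 to 40.4, 24.4 to 55.0 and 2333 to 2514 CPM. Leukocyte markers (10 genes) summed to 2062 to 2487, 283 to 1403, 315 to 456 and 143 to 159 CPM in the same order, neutrophil markers (10 genes) to 10278 to 12919, 89.1 to 1214, 598 to 798 and 5.23 to 14.6 CPM, and megakaryocyte markers (6 genes) to 312 to 402, 48.1 to 87.1, 65.0 to 109.5 and 38.8 to 181.7 CPM. Of the macrophage markers, Marco, Cd5l and Adgre1 had 0 counts in both CD45 RIT libraries, so other genes of that list made up the sum there. Adgre1 also had 0 counts in all IgG RIT libraries, and Marco, Cd5l and C1qa in all untreated ones. The part of these marker differences in the results that follow was not tested. In such bulk samples, fewer cells of a type and less RNA per cell cannot be told apart.

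Malat1 and Neat1 are neighbouring genes whose long transcripts stay in the nucleus. Malat1 RNA gathers in nuclear speckles, bodies rich in splicing factors, and Neat1 RNA is the scaffold of paraspeckles, bodies that hold RNA-binding proteins such as NONO and SFPQ. Both are known for a 3′ end that is not polyadenylated in the usual way: RNase P cuts off a tRNA-like fragment downstream, and the new end folds back into a triple helix with genomically encoded A-rich sequence. Gas5, Snhg1, Snhg6 and Snhg12 are host genes whose introns carry small nucleolar RNAs (snoRNAs), the guides for chemical modification of ribosomal RNA, while their spliced transcripts are often degraded when they are translated. Gas5 and Snhg1 belong, with the ribosomal protein genes, to the transcripts that start with a run of pyrimidines and whose translation follows growth signals. Kcnq1ot1 is transcribed from the paternal allele of an imprinted domain, antisense to Kcnq1, and silences neighbouring genes on that chromosome.

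All positions are on the mouse build GRCm38, and every span is a single exon block unless stated. Malat1 (ENSMUSG00000092341.3) lies at chr19:5795690-5802672 on the minus strand with 6983 exonic bases, and Neat1 (ENSMUSG00000092274.3) at chr19:5824708-5845478 on the minus strand with 20771. Gas5 (ENSMUSG00000053332.13) lies at chr1:161034422-161038539 on the plus strand with 3760 exonic bases in 3 blocks, Snhg1 (ENSMUSG00000108414.1) at chr19:8723475-8726443 on the plus strand with 2969, Snhg6 (ENSMUSG00000098234.7) at chr1:9941959-9944118 on the minus strand with 1146 in 3 blocks and Snhg12 (ENSMUSG00000086290.9) at chr4:132308623-132311024 on the plus strand with 2402. Kcnq1ot1 (ENSMUSG00000101609.2) lies at chr7:143203458-143296549 on the minus strand and is annotated as 1 unspliced transcript of 93092 bases.

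The 3′ regions of Malat1 and Neat1 are shown because these RNAs moved together in the libraries and share this element. Capitals mark the runs of 10 or more bases that both sequences hold. The Malat1 stretch is chr19:5795982-5796076, bases 6597 to 6691 of 6983 in the annotated transcript, and the Neat1 stretch is chr19:5824708-5824802, the last 95 bases of the annotated long transcript. Both are read from GENCODE M21 transcripts, 5′ to 3′ on the minus strand.
Malat1: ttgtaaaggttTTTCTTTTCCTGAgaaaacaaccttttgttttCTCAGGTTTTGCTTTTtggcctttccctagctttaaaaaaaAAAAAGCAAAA
Neat1: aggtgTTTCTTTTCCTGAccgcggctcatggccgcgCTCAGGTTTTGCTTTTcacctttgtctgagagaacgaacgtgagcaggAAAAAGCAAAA
The run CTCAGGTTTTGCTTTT was found in 2 of 141767 transcripts (0.00141%), both from these genes, TTTCTTTTCCTGA in 35 (0.0247%) and AAAAAGCAAAA in 618 (0.436%), all on the sense strand, and the runs were chosen after the sequences were seen. The U-rich runs and the A-rich run are the parts known to form the triple helix.

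The starts of 3 host genes are shown because the ribosomal protein genes, with which they are classed, were measured beside them. Each stretch has 25 bases before and 25 from the annotated start, read from RefSeq (GRCm38.p6), and capitals mark the longest run of C and T that touches the first 12 transcribed bases. The Gas5 stretch is its second annotated start (chr1:161035141-161035190), Snhg1 is chr19:8723462-8723511 and Snhg12 is chr4:132308653-132308702, all on the plus strand.
Gas5: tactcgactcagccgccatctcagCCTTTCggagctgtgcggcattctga
Snhg1: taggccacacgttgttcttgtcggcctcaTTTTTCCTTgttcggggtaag
Snhg12: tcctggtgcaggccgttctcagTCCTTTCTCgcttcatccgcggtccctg
The run is 6 bases long at this start of Gas5 and 3 at its other annotated start, which 67.3% of windows reach. The 6 bases are a length that 19.5% of 32851 windows of the same size reach. The run is 9 bases long in Snhg1 and Snhg12, which 6.12% reach, 3 in Malat1 (67.3%) and 2 in Kcnq1ot1 (89.0%). Sequences were matched for 5 of the 7 genes, and none was given for Neat1 and Snhg6. A match describes these letters only.

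The snoRNAs are shown because they are the products for which the host genes are known. Capitals mark the first TGATGA and the last CTGA, spellings of the C and D boxes, searched on the sense strand; 25.2% of 1507 annotated snoRNA transcripts hold both. Snord87 lies in Snhg6 (chr1:9942463-9942549, minus strand), Snord47 in Gas5 (chr1:161038082-161038158, plus strand) and Snord99 in Snhg12 (chr4:132310691-132310764, plus strand), all from GENCODE M21.
Snord87: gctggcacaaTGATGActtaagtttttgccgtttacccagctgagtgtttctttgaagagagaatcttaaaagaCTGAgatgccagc
Snord47: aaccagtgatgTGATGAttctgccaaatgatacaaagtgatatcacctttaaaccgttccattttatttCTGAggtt
Snord99: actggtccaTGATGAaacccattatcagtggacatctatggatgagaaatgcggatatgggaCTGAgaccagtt
The host genes span 24 annotated snoRNA genes, 10 in Gas5, 8 in Snhg1, 1 in Snhg6 and 5 in Snhg12. Only Snord87, which lies in an intron in every annotated form of Snhg6, had any count, 33 in all libraries together and at most 7 in 1 library. The other 23 lie inside exons of some annotated host transcript and were listed at 0 in all 14 libraries, so the values of Gas5, Snhg1 and Snhg12 describe the host transcripts and say nothing of their snoRNAs.

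Malat1 was 2893, 2450, 2592 and 2210 CPM in untreated replicates 1 to 4. It was 1275, 2101, 1778, 2197 and 3803 CPM in TBI replicates 1, 3, 4, 5 and 6, 7115, 6600 and 6118 in the IgG RIT libraries and 11181 and 10002 in the CD45 RIT libraries. TBI replicates 1, 3, 4 and 5 lay below every untreated library and replicate 6 above every one, while all IgG RIT libraries lay above all untreated and TBI libraries and both CD45 RIT libraries lay above all others. As a share of all counts, with no scaling, Malat1 took 0.254 to 0.355% in untreated, 0.151 to 0.323% in TBI, 0.511 to 0.578% in IgG RIT and 0.775 to 0.786% in CD45 RIT libraries. By this measure the IgG RIT and CD45 RIT libraries still stood apart, but the TBI and untreated libraries were mixed. TBI replicate 6 (0.323%) lay below untreated replicate 1 (0.355%), and TBI replicate 5 (0.26%) above untreated replicate 4 (0.254%).

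**Figure D1:**
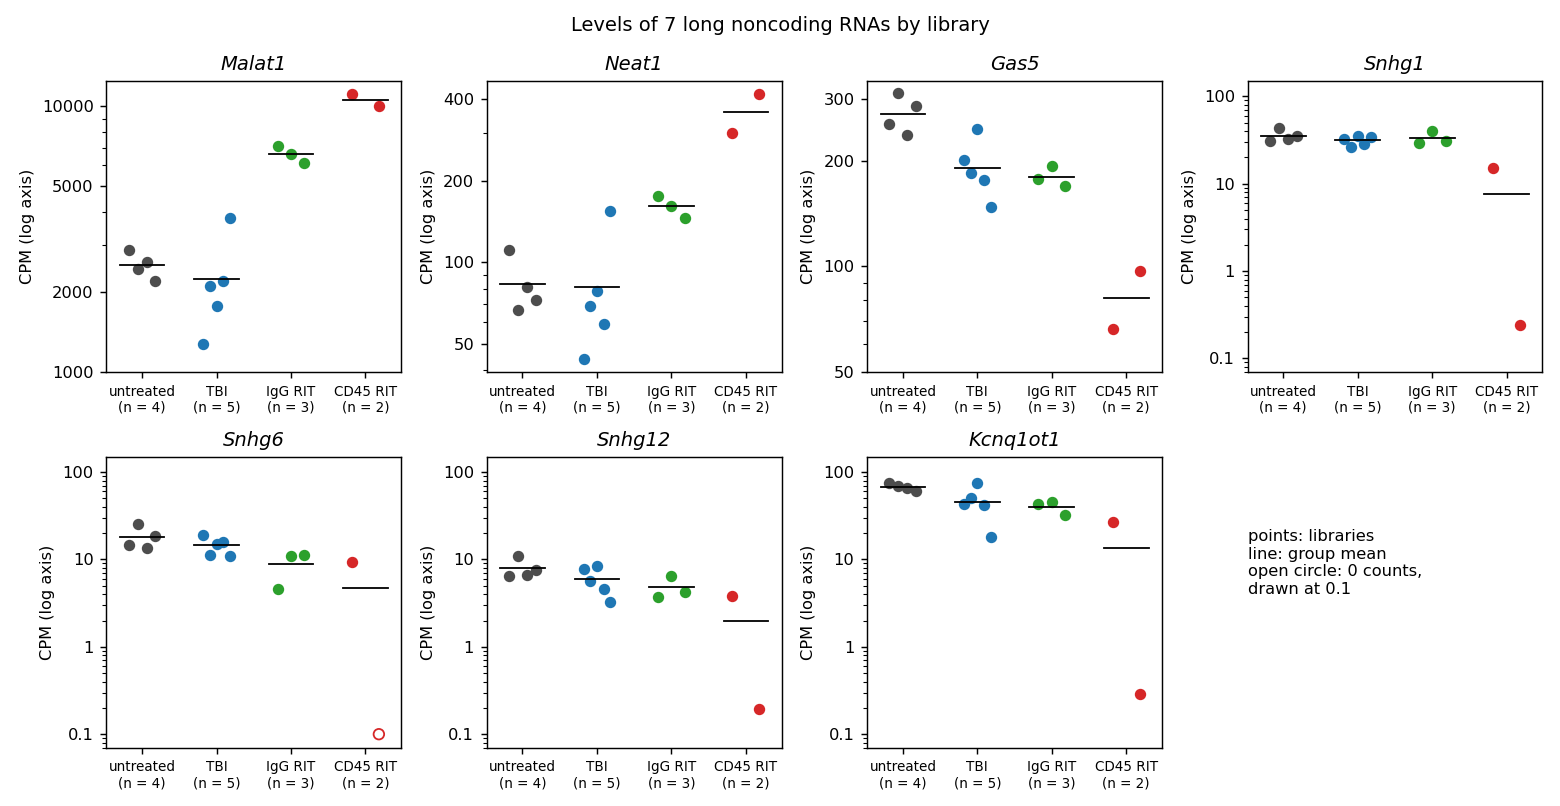
CPM of each gene (y, log axis, TMM-scaled library size) in every library by treatment group (x), with a line at the group mean and an open circle for a count of 0. Malat1 and Neat1 are highest in CD45 RIT libraries, Gas5 is lowest there, and the 4 remaining genes split the CD45 RIT pair, with replicate 2 at 0 to 6 counts.

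The Neat1 group means followed the order of the Malat1 means at a much lower level. They were 81.1 CPM in TBI, 82.8 in untreated, 161.1 in IgG RIT and 358.6 in CD45 RIT, with more overlap between libraries than for Malat1. Neat1 was 111.0, 66.9, 80.7 and 72.6 CPM in untreated, 44.0, 69.2, 78.6, 59.2 and 154.6 in TBI, 176.0, 162.0 and 145.4 in IgG RIT and 299.7 and 417.5 in CD45 RIT libraries. TBI replicate 6 again stood above the other TBI libraries and reached the IgG RIT range. Per kilobase of exonic length, Malat1 was 363 ± 40.8 and Neat1 3.99 ± 0.946 CPM per kb in untreated libraries (SD, n = 4), and 1517 ± 119 and 17.3 ± 4.01 in CD45 RIT libraries (SD, n = 2). Each length joins the exons of all 4 annotated transcripts of the gene. The gene counts do not separate these transcripts, so they do not show which form of Neat1 was measured. The number of Malat1 counts for each Neat1 count, which no scaling between libraries can change, was 26.1 to 36.6 in untreated, 22.6 to 37.1 in TBI, 40.4 to 42.1 in IgG RIT and 37.3 and 24.0 in CD45 RIT libraries.

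Against untreated libraries, IgG RIT changed 1 of the 7 genes by the quasi-likelihood test of edgeR at an adjusted p under 0.05, beside 16.4% of all 21509 genes tested. Malat1 was higher by 1.38 on the log2 scale (SE 0.28, edgeR adjusted p = 0.00797), which is 2.61-fold. The IgG RIT and TBI libraries entered the choice of Malat1, so no test of Malat1 that uses either group is independent of that choice. Neat1 was 0.96 higher (SE 0.35), with no overlap between the groups in TMM-scaled CPM, and missed the threshold (edgeR adjusted p = 0.0825). As a share of all counts, with no scaling, the groups overlapped for Neat1, at 0.0121 to 0.0142% in IgG RIT and 0.0081 to 0.0136% in untreated libraries. With only these groups in the fit, Neat1 passed (1.25, adjusted p = 0.00205), as it did in DESeq2 (1.16, adjusted p = 0.036).

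CD45 RIT changed 3 of the 7 genes against untreated libraries (33.1% of all genes tested were called). It changed 3 against TBI (38.6%) and 2 against IgG RIT (37.7%). Neat1 was called higher in each of these contrasts, and Malat1 against untreated and TBI but not against IgG RIT. Malat1 was 2.06 higher than in untreated libraries (SE 0.31, edgeR adjusted p = 0.00047), or 4.18-fold, and Neat1 2.11 higher (SE 0.39, edgeR adjusted p = 0.00165), or 4.33-fold. Against TBI, Neat1 was 2.14 higher (SE 0.37, edgeR adjusted p = 0.00069). The Malat1 difference from TBI, 2.25 (SE 0.29), is given without its p since the low TBI level helped choose the set. Between the radioimmunotherapies, Neat1 was 1.15 higher after CD45 RIT (SE 0.42, edgeR adjusted p = 0.0469). Malat1 differed by 0.68 (SE 0.34, edgeR adjusted p = 0.129). It passed under a term for a library number of 10 or more (0.68, edgeR adjusted p = 0.0253). All libraries of both groups have such a number, so the term left the difference itself unchanged. The IgG RIT libraries also entered the choice of Malat1, so neither test of it here is independent of that choice. The Neat1 call was lost without any of the IgG RIT libraries (edgeR adjusted p = 0.079 to 0.111) and with RLE factors (edgeR adjusted p = 0.056). It was also lost without the filter on low counts (edgeR adjusted p = 0.131), with a replicate block (edgeR adjusted p = 0.0576) and with only these groups in the fit (1.12, edgeR adjusted p = 0.0519). Without CD45 RIT replicate 2, which leaves 1 library of that group, the Neat1 value was 0.67 and the call was lost.

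TBI against untreated gave a call for 0 of the 7 genes (4.31% of all genes tested), and DESeq2 also called 0. By edgeR, 1 of the 7, Gas5, had an unadjusted p under 0.05. Malat1 differed from untreated by -0.19 (SE 0.25, edgeR adjusted p = 0.8) and Neat1 by -0.03 (SE 0.31, edgeR adjusted p = 0.983), a sign that turned with RLE factors (0.12). Among the libraries numbered under 10 in the labels, which leaves out TBI replicate 6, Malat1 differed by -0.37 (adjusted p = 0.159). In the contrast that chose the set, IgG RIT minus TBI, the fitted differences were 1.57 for Malat1 (SE 0.27), with the lowest IgG RIT library at 6118 CPM and the highest TBI library at 3803, and 0.99 for Neat1 (SE 0.33), with 145.4 against 154.6 CPM. Over the alternatives the Malat1 difference ran from 0.8 to 1.95.

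Library numbers in the labels move with the treatments. Untreated libraries carry numbers from 2 to 7, the IgG RIT libraries 11 to 13, the CD45 RIT libraries 15 and 16, and TBI replicate 6 alone of the TBI libraries has a number of 10 or more; the labels do not say what the number records. With a term for a number of 10 or more, which rests on TBI replicate 6, Malat1 in IgG RIT against untreated was 0.33 (edgeR adjusted p = 1), and in CD45 RIT against untreated it was 1.01 (edgeR adjusted p = 0.0779) and Neat1 0.81 (edgeR adjusted p = 0.261). Against TBI, CD45 RIT was 1.48 higher for Malat1 and 1.21 higher for Neat1 under that term, still past the threshold, with the same limit on Malat1 from the choice of the set. TBI replicate 6 also had the highest red cell marker sum of the TBI libraries (176932 CPM). The part of these markers in the Malat1 values was not tested.

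**Figure D2:**
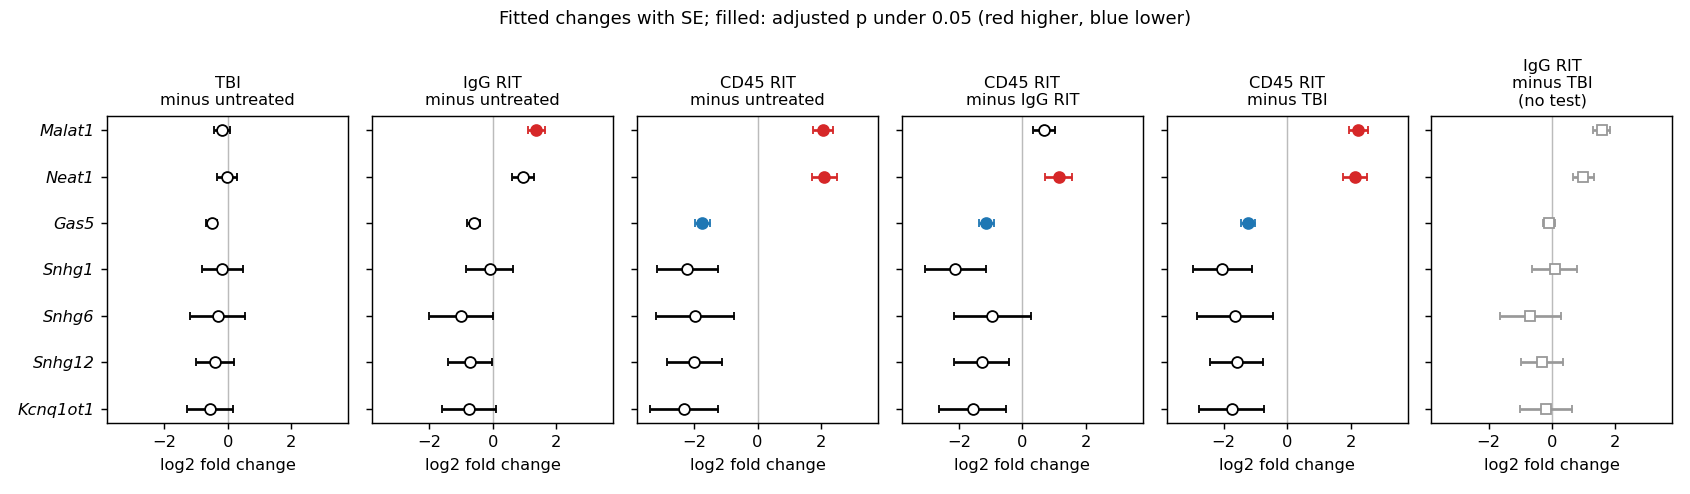
Fitted log2 fold change (x) of each gene (y) in 6 contrasts, with bars of 1 SE; filled points have an edgeR adjusted p under 0.05, red for higher and blue for lower, and the last contrast carries no test because it chose the set. Malat1 and Neat1 lie to the right and Gas5 to the left in each contrast of CD45 RIT, with Malat1 unfilled against IgG RIT, and no gene is filled for TBI against untreated; Malat1 points that use TBI or IgG RIT libraries are not independent of the choice of the set.

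Counts at the Malat1 locus were assigned to genes on both strands. Gm37376 (ENSMUSG00000102349.1), an unverified gene model of 453 bases at chr19:5801941-5802393 on the plus strand, lies opposite bases 280 to 732 of Malat1 and held 896716 counts in all, beside 1348488 for Malat1. Its counts were 0.598 to 0.707 of the Malat1 counts in every library. Over the whole table, 123 of 128 genes that lie within exons of a well counted gene on the opposite strand had counts of their own, and 0 of 34 such genes on the same strand did, so the deposited counting separated strands. The SMART-Seq v4 and Nextera XT kits do not mark strand, so reads of Malat1 and of an antisense RNA cannot be told apart, and Malat1 totals leave out reads assigned to Gm37376. With both genes summed, a setting chosen after seeing the data, the log2 changes against untreated were 1.39 for IgG RIT (edgeR adjusted p = 0.00786) and 2.01 for CD45 RIT (edgeR adjusted p = 0.000556). The IgG RIT libraries helped choose the set, so the test of the summed counts in IgG RIT is not independent of that choice.

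**Figure D3:**
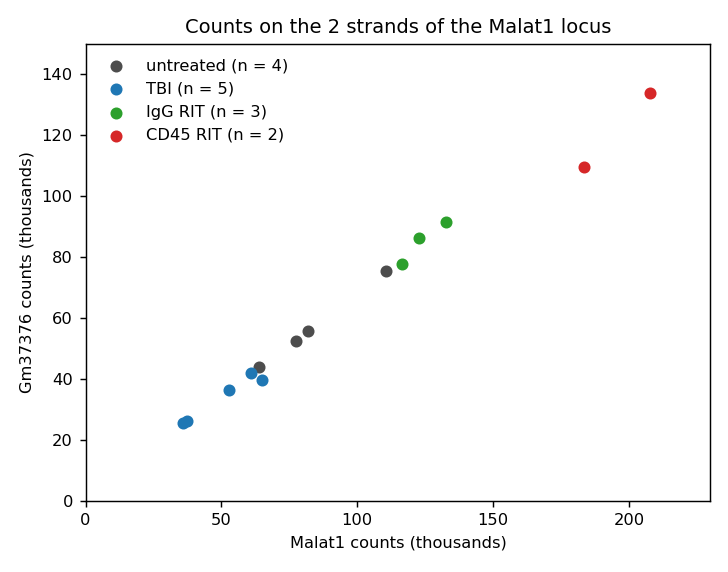
Counts of Gm37376 (y, in units of 1000) against counts of Malat1 (x, in units of 1000) in each of the 14 libraries, coloured by group. The points lie close to a straight line, with 0.598 to 0.707 Gm37376 counts for each Malat1 count.

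Gas5, the most abundant of the 4 host genes, went the other way in CD45 RIT. It was 254.3, 312.8, 237.6 and 286.3 CPM in untreated, 201.3, 185.3, 247.2, 176.1 and 147.6 in TBI, 177.7, 193.1 and 170.0 in IgG RIT and 66.3 and 96.8 in CD45 RIT libraries. All IgG RIT libraries lay below all untreated ones, TBI overlapped both, and the CD45 RIT libraries were lowest. Gas5 fell by 1.74 on the log2 scale in CD45 RIT against untreated (SE 0.24, edgeR adjusted p = 0.000248), by 1.14 against IgG RIT (SE 0.24, edgeR adjusted p = 0.00317) and by 1.23 against TBI (SE 0.23, edgeR adjusted p = 0.00122). In a fit of only the 5 radioimmunotherapy libraries the second of these calls was lost (adjusted p = 0.059). Under the term for library number the change against untreated was still called (-1.29, adjusted p = 0.0231).

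After IgG RIT, Gas5 was -0.60 against untreated (SE 0.20, edgeR adjusted p = 0.0575), which passed without scaling factors (-1.12, adjusted p = 0.0097) and was -0.14 under the term for library number (adjusted p = 1). After TBI it was -0.51 (SE 0.17, edgeR adjusted p = 0.119). In the contrast that chose the set, Gas5 differed by -0.09 between IgG RIT and TBI.

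Malat1 was also set against Gas5 within each library. Malat1 had 7.72 to 11.4 counts for each Gas5 count in untreated, 6.34 to 25.8 in TBI, 34.2 to 40.0 in IgG RIT and 168.7 and 103.4 in CD45 RIT libraries. Untreated and TBI overlapped, with TBI replicate 6 at the top, and IgG RIT and CD45 RIT each stood apart. Neat1 had 0.214 to 0.437, 0.219 to 1.05, 0.839 to 0.991 and 4.32 to 4.52 counts per Gas5 count in the same order.

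**Figure D4:**
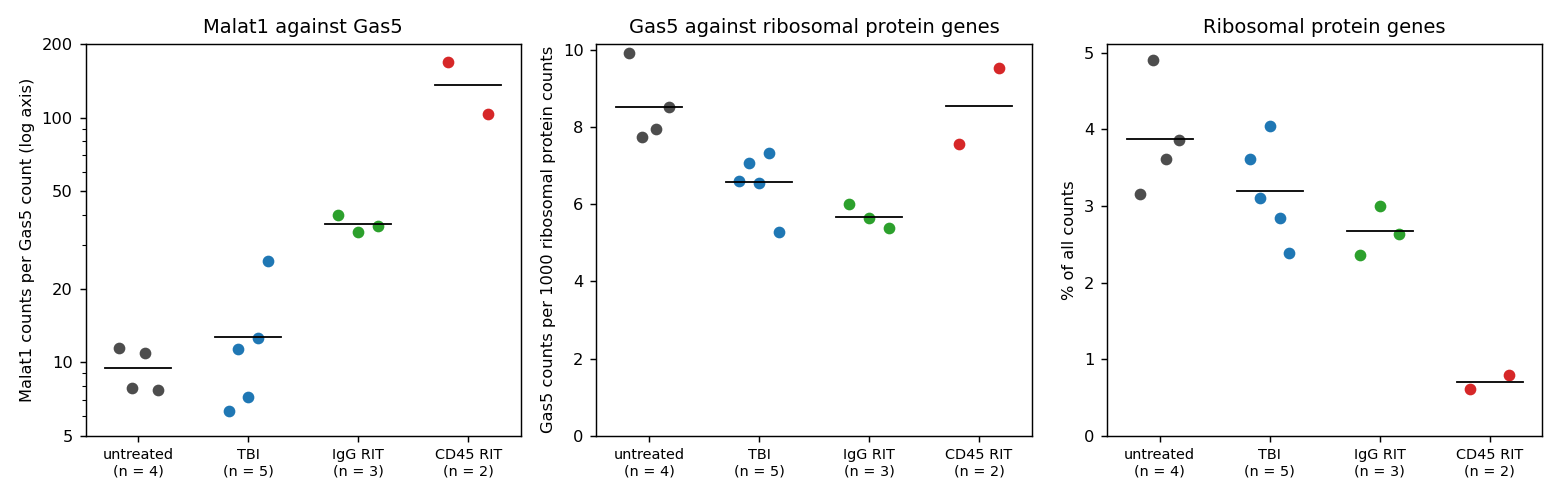
Malat1 counts per Gas5 count (left, log axis), Gas5 counts per 1000 ribosomal protein counts (middle) and ribosomal protein genes as a percentage of all counts (right) in each library by group, with a line at the group mean. The first rises from 7.72 to 11.4 in untreated to 168.7 and 103.4 in CD45 RIT libraries, while the second overlaps between those groups and the third drops below 0.8% in CD45 RIT.

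Snhg1, which carries 8 snoRNA genes, had overlapping levels in untreated, TBI and IgG RIT libraries. It was 30.9, 43.8, 32.9 and 34.8 CPM in untreated, 26.7 to 35.6 in TBI (median 32.7), 29.1, 40.0 and 30.7 in IgG RIT, and 15.2 and 0.241 in CD45 RIT libraries, the last from 5 counts. The CD45 RIT libraries differ from each other by far more than libraries of any other group. The fitted change in CD45 RIT against untreated was -2.21 (SE 0.95, edgeR adjusted p = 0.0903). It passed without scaling factors (-2.97, edgeR adjusted p = 0.0316) and in DESeq2 (-2.04, DESeq2 adjusted p = 0.0392). The value was -7.19 without CD45 RIT replicate 1 and -1.26 without replicate 2. Against untreated, IgG RIT gave -0.10 (SE 0.75), which turned to 0.12 with RLE factors, and TBI gave -0.17 (SE 0.65).

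Snhg6, host of Snord87, was 14.6, 25.8, 13.7 and 18.5 CPM in untreated, 11.1 to 19.1 in TBI (median 15.2), 4.63, 11.1 and 11.2 in IgG RIT, and 9.33 and 0 in CD45 RIT libraries. The library at 0 had a floor of 0.144 TMM-scaled CPM, the level of 3 counts, for counting error only. Snhg12, host of box H/ACA and C/D snoRNAs, was 6.55 to 11.0 CPM in untreated, 3.30 to 8.49 in TBI, 3.76 to 6.43 in IgG RIT, and 3.78 and 0.192 (4 counts) in CD45 RIT libraries. All IgG RIT libraries lay below all untreated ones for both genes, at -1.01 for Snhg6 (SE 1.01, edgeR adjusted p = 0.522) and -0.72 for Snhg12 (SE 0.70, edgeR adjusted p = 0.512). In CD45 RIT against untreated, the fitted values were -1.96 for Snhg6 (SE 1.23, edgeR adjusted p = 0.228) and -1.99 for Snhg12 (SE 0.87, edgeR adjusted p = 0.0937), and neither passed. Snhg12 passed without scaling factors (-2.75, adjusted p = 0.034) and in DESeq2 (-1.82, adjusted p = 0.0292). Without CD45 RIT replicate 1, Snhg6 was -11.85 (adjusted p = 1.19e-05) and Snhg12 -5.33 (adjusted p = 0.000268), from the counts of 0 and 4 in replicate 2.

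Kcnq1ot1 was 75.9, 69.5, 66.4 and 60.8 CPM in untreated libraries, 43.5, 51.0, 74.6, 42.4 and 17.9 in TBI, 43.0, 45.2 and 32.4 in IgG RIT, and 27.1 and 0.289 (6 counts) in CD45 RIT libraries. Its long annotated span puts it lowest of the 7 per length, at 0.732 ± 0.0678 CPM per kb in untreated libraries (SD, n = 4). The IgG RIT and CD45 RIT libraries lay below all untreated ones, at -0.76 (SE 0.85, edgeR adjusted p = 0.574) and -2.32 (SE 1.07, edgeR adjusted p = 0.111). Neither passed, but the CD45 RIT value did without scaling factors (-3.09, edgeR adjusted p = 0.0481). Kcnq1, on the opposite strand, had 0 to 7 counts in any library, and the exons of the 2 genes overlap by 121 bases.

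CD45 RIT replicate 2 was the library with the fewest genes detected, 17700, and Snhg1, Snhg6, Snhg12 and Kcnq1ot1 had 5, 0, 4 and 6 counts in it, against 249, 153, 62 and 444 in replicate 1. With replicate 1 left out, the fitted changes against untreated were -7.19 for Snhg1, -11.85 for Snhg6, -5.33 for Snhg12 and -7.87 for Kcnq1ot1. With replicate 2 left out, Snhg1 was -1.26. Each of these fits rests on 1 CD45 RIT library. Of all genes tested, 14.5% were called higher and 18.6% lower in CD45 RIT against untreated, 19.6% and 19.0% against TBI and 20.2% and 17.5% against IgG RIT, while IgG RIT against untreated gave 5.75% and 10.7% and TBI against untreated 0.921% and 3.38%. In TMM-scaled CPM, groups did not overlap for 7 of 7 genes in CD45 RIT against untreated (47.3% of all genes), 5 against TBI (45.8%), 5 against IgG RIT (51.3%), 6 in IgG RIT against untreated (43.1%) and 0 in TBI against untreated (19.1%). Of all genes called, the share called higher was 43.8% in CD45 RIT against untreated and 35.0% in IgG RIT against untreated with TMM factors, 52.8% and 46.7% with RLE factors and 22.7% and 14.5% without factors. The median log2 change of all genes tested was -0.37 and -0.42 in these contrasts, and moved by 0.24 and 0.21 with RLE factors and by -0.71 and -0.52 without factors.

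Gene lists for the pathways around these RNAs were also counted. Under the term for library number, all 12 genes picked from the lists for IgG RIT against untreated lost their calls, as did 15 of 21 for CD45 RIT against untreated, where Son, Smg8, Slc22a18, Snhg4, Rpl7a and Rpl13a kept theirs. With a replicate block 5 of the 12 and 9 of the 21 were lost, and without scaling factors 3 and 4. For CD45 RIT against IgG RIT, 17 of 21 calls were lost with only these groups in the fit. The shares of all genes called higher and lower against untreated, 14.5% and 18.6% in CD45 RIT and 5.75% and 10.7% in IgG RIT, stand as the background of each list.

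The other snoRNA host genes, 18 genes named Snhg or in the same class, were counted first. In CD45 RIT against untreated, 1 of the 17 tested was called higher and 4 lower (background 14.5% and 18.6%), with a median of -0.29 beside -0.37 for all genes. Snhg18 rose by 3.41 (SE 0.72, edgeR adjusted p = 0.00378), from 4.86 ± 2.73 (SD, n = 4) to 51.7 ± 20.1 CPM (SD, n = 2). The gene model of Snhg4 with the largest drop was at 0 counts in each CD45 RIT library and at 408 to 762 in untreated ones, at least 110.7-fold lower against a floor of 3 counts per library (edgeR adjusted p = 1.52e-05). In IgG RIT, 0 were called higher and 2 lower: Snhg15 fell by 1.69 (SE 0.37, edgeR adjusted p = 0.00998) and Snhg20 by 1.27 (SE 0.33, edgeR adjusted p = 0.0212), the latter lost without untreated replicate 2 or IgG RIT replicate 1 or 3 (adjusted p = 0.053 to 0.077). Snhg20 was also the only host gene called in TBI against untreated, where it fell by 1.16 (SE 0.28, edgeR adjusted p = 0.0342), a call lost when any library other than TBI replicate 4 was left out (adjusted p = 0.0512 to 0.113).

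Ribosomal protein genes fell almost as a whole in CD45 RIT. Of 83 tested, 80 were called lower and 1 higher against untreated, with a median of -1.87 beside -0.37 for all genes, and 75 and 2 against IgG RIT and 78 and 1 against TBI. Rpl7a went from 240.9 ± 58.2 (SD, n = 4) to 26.7 ± 19.1 CPM (SD, n = 2), and so fell by 3.17 (SE 0.45, edgeR adjusted p = 0.000312). The gene called higher was Rpl39l, a paralog of Rpl39 known from testis, at 4.02 (SE 0.88, edgeR adjusted p = 0.00487). Without CD45 RIT replicate 1 the count lower against untreated was 78, without replicate 2 it was 76, and under the term for library number 58. In TBI none was called against untreated, with a median of -0.16, and 3 had an unadjusted p under 0.05, while IgG RIT gave 0 higher and 1 lower, the muscle paralog Rpl3l, whose call was lost without IgG RIT replicate 1 or 2 (adjusted p = 0.0634 and 0.063).

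Gas5 was also set against these genes within each library, which no scaling can change. The ribosomal protein genes took 3.15 to 4.90% of all counts in untreated, 2.38 to 4.04% in TBI, 2.36 to 3.00% in IgG RIT and 0.616 and 0.787% in CD45 RIT libraries. Gas5 had 7.73 to 9.92 counts per 1000 ribosomal protein counts in untreated, 5.27 to 7.33 in TBI, 5.38 to 6.01 in IgG RIT and 7.57 and 9.53 in CD45 RIT libraries. By this measure CD45 RIT overlapped untreated, and TBI and IgG RIT lay below it. Snhg1 had 1.04 to 1.21, 0.944 to 1.23, 0.971 to 1.17 and 1.73 and 0.0237 counts per 1000 in the same order. Malat1 had 60.6 to 112.9, 41.9 to 135.9, 192.6 to 240.6 and, in CD45 RIT replicates 1 and 2, 1277 and 985.

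Of 15 genes for proteins that bind and mature snoRNAs, 11 were called lower and 0 higher in CD45 RIT against untreated (median -2.18), 5 and 0 in IgG RIT against untreated (median -1.06), and 0 either way in TBI. Under the term for library number these counts of 11 and 5 were 1 and 0. Gar1, a core protein of box H/ACA particles, fell by 3.01 in CD45 RIT (SE 0.48, edgeR adjusted p = 0.00068), from 94.8 ± 12.1 (SD, n = 4) to 11.8 ± 6.50 CPM (SD, n = 2). Nop10, another core protein of these particles, fell by 1.5 in IgG RIT (SE 0.29, edgeR adjusted p = 0.00634), from 255.5 ± 57.8 (SD, n = 4) to 90.1 ± 11.7 CPM (SD, n = 3). Under the term, the Nop10 value in IgG RIT was -0.61 (adjusted p = 1) and the Gar1 value in CD45 RIT -1.76 (adjusted p = 0.0524). Without CD45 RIT replicate 1 the count lower was 13, and without replicate 2 it was 12.

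Of 14 genes for paraspeckle proteins, the partners of Neat1, 1 was called higher and 2 lower in CD45 RIT against untreated (background 14.5% and 18.6%), and 0 in IgG RIT or TBI, with an unadjusted p under 0.05 for 0 and 2 of them. Ewsr1 fell by 0.79 in CD45 RIT (SE 0.24, edgeR adjusted p = 0.0228) and Dazap1 by 1.32 (SE 0.34, edgeR adjusted p = 0.011). The Ewsr1 call was lost without CD45 RIT replicate 2 (-0.55, adjusted p = 0.115), without untreated replicate 4 (-0.71, adjusted p = 0.0524) and with RLE factors (-0.55, adjusted p = 0.0693). Sfpq, which encodes a protein that Neat1 RNA binds, fell by 0.94 in CD45 RIT against IgG RIT (SE 0.26, edgeR adjusted p = 0.0137), a call lost without CD45 RIT replicate 1 (-0.63, adjusted p = 0.0622) and with only these groups in the fit (-0.98, adjusted p = 0.134). Hnrnph3 was called higher by 1.06 (SE 0.36, edgeR adjusted p = 0.0379), and without CD45 RIT replicate 2 the value was -0.06 (adjusted p = 0.882); the call was also lost without any of the untreated libraries (adjusted p = 0.0535 to 0.078).

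Of 16 nuclear speckle protein genes, 1 was called higher and 7 lower in CD45 RIT against untreated (median -0.47), and 3 and 2 in IgG RIT (median 0.19). Son, which encodes a core scaffold of the speckles, rose by 0.93 in CD45 RIT (SE 0.15, edgeR adjusted p = 0.000664), from 317 ± 29.4 (SD, n = 4) to 605 ± 60.5 CPM (SD, n = 2), a call lost without scaling factors (0.23, adjusted p = 0.293). The splicing factor genes U2af2 and Srsf7 fell by 1.70 (SE 0.36, edgeR adjusted p = 0.00384) and 1.35 (SE 0.22, edgeR adjusted p = 0.000667). In IgG RIT, Srrm1, which encodes a splicing coactivator, rose by 1.00 (SE 0.15, edgeR adjusted p = 0.0026), and Srsf7 fell by 0.76 (SE 0.18, edgeR adjusted p = 0.0162), the latter lost without IgG RIT replicate 1 or 2 (adjusted p = 0.0733 and 0.0552). None of the 16 was called in TBI, and 1 of them had an unadjusted p below 0.05.

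Nonsense-mediated decay degrades many host transcripts. Of 12 genes for its factors, 2 were called higher and 0 lower in IgG RIT against untreated, Smg6 by 0.83 (SE 0.20, edgeR adjusted p = 0.017) and Upf3b by 0.78 (SE 0.22, edgeR adjusted p = 0.0317). Both calls were lost without IgG RIT replicate 1 or 2, and that of Upf3b also without IgG RIT replicate 3 or untreated replicate 1, 3 or 4. In CD45 RIT 2 were called higher and 2 lower, close to the background of 14.5% and 18.6%. Smg5 rose by 1.01 (SE 0.20, edgeR adjusted p = 0.00269) and Dhx34 by 2.01 (SE 0.62, edgeR adjusted p = 0.0256). The Dhx34 call was lost without CD45 RIT replicate 2 (1.49) or untreated replicate 2 (1.86, edgeR adjusted p = 0.0626). Nbas fell to 32 and 1 counts and Smg8 to 4 and 0 counts in CD45 RIT replicates 1 and 2. The Nbas call was lost without CD45 RIT replicate 2 or untreated replicate 3 or 4 (adjusted p = 0.0546 to 0.0674). The 12 gave 0 calls in TBI, and 1 of them had an unadjusted p below 0.05.

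Genes of the imprinted Kcnq1 domain, several of which Kcnq1ot1 is known to silence, were measured in 10 of 11 cases. In CD45 RIT against untreated, 3 were called higher and 1 lower (median 1.06). Cdkn1c, an inhibitor of the cell cycle, rose from 8.17 ± 3.90 (SD, n = 4) to 194.6 ± 27.1 CPM (SD, n = 2), a change of 4.57 (SE 1.04, edgeR adjusted p = 0.00597). Slc22a18, a transporter gene, rose by 3.34 (SE 0.85, edgeR adjusted p = 0.0104), while in IgG RIT it had 0 or 1 count against 57 to 149 in untreated, at least 15.9-fold lower (edgeR adjusted p = 0.00408). In TBI it had 0 to 8 counts and fell by 3.81 (SE 0.75, edgeR adjusted p = 0.0146), a call lost with a replicate block (adjusted p = 0.308). Phlda2 had 1 and 0 counts in CD45 RIT replicates 1 and 2 and 48 to 157 in untreated libraries, at least 16.0-fold lower (edgeR adjusted p = 0.00647). The Cdkn1c and Slc22a18 calls in CD45 RIT were lost with a replicate block (adjusted p = 0.0662 and 0.0604), and the Cdkn1c call also under the term for library number (adjusted p = 0.188). Stromal and macrophage marker sums were highest in these libraries, and their part was not tested.

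The genes most like each member were found by Pearson correlation of log2 CPM over the 14 libraries, given as a description since the libraries share their groups. For Malat1 they were Tor1aip1, which encodes a protein of the inner nuclear membrane (r = 0.964), the linker histone gene Hist1h1c (0.952) and Neat1 (0.951), and without the CD45 RIT libraries r was 0.931 to 0.941 over 12. For Neat1 they were Tor1aip1 (0.970), St3gal1 (0.953) and Malat1. For Gas5 they were Sf3b6 (0.975) and Snrpd2 (0.973), which encode parts of the splicing machinery, and Hsd17b10 (0.971), with 0.899 to 0.909 over 12 libraries. For Snhg1 the top genes were Dpy30 (0.996), Mrpl30 (0.995) and Rpa3 (0.995), and without the CD45 RIT libraries r was 0.818, 0.437 and 0.633, so the likeness of the latter pair rests on those libraries. The remaining genes led with Exosc1 for Snhg6 (0.992), Knop1 for Snhg12 (0.989) and Sltm for Kcnq1ot1 (0.987).

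All lncRNA genes together took 2.00 to 2.80% of counts in every library. Malat1 made up 11.1% of them in untreated, 10.6% in TBI, 22.4% in IgG RIT and 30.2% in CD45 RIT libraries. Without Malat1, the lncRNA share was 2.39 to 2.49% in untreated, 1.68 to 2.28% in TBI, 1.87 to 1.99% in IgG RIT and 1.63 and 1.95% in CD45 RIT libraries. Every treated library thus lay below every untreated one. This share includes Gm11505, with a mean of 2919.7 CPM in untreated, 180.6 in TBI, 229.6 in IgG RIT and 0.0545 in CD45 RIT libraries. Gm12999 had means of 565.3, 642.8, 1502.7 and 353.7 CPM in the same order. Whether the separation holds without Gm11505 was not tested, so it does not describe lncRNA genes in general. Neat1 had rank 29 among lncRNA genes in untreated, 33 in TBI, 24 in IgG RIT and 5 in CD45 RIT libraries, and Gas5 had rank 9, 8, 20 and 52.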

How the data were processed

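Sorted bone marrow cells were profiled by RNA-seq, and the deposited file gives unnormalized gene counts with gene annotation, per the file headers. The submitters' processing notes name STAR 2.7.7a, FastQC 0.11.9, edgeR 3.36.0 and the human build hg38, but 54587 of 55335 gene identifiers matched GENCODE release M21 (GRCm38), all 54587 at the same place, so that build is used. The counter and its strand setting are not given in the sources used here. Columns were assigned by library name, and 0 were left unassigned. The libraries carry no molecular identifiers, so floors (3 counts) cover counting error only.

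Genes were filtered with filterByExpr (minimum count 10, minimum total 15), which kept 21509 genes and all 7 members. A robust quasi-likelihood fit of edgeR 4.0.16 (R 4.3.3) with TMM factors took all 14 libraries and a mean for each group, p-values were adjusted by Benjamini-Hochberg within each contrast, and an adjusted p under 0.05 was a call. Each SE was derived from the log2 change and its F statistic. CPM values of genes use TMM-scaled library sizes, and marker sums total counts. The script was tested on simulated data. Alternatives were RLE factors, no factors, no filter, DESeq2 1.42.0, a replicate block, a term for a library number of 10 or more, only the groups compared, only libraries numbered under 10, and each library left out; summing Malat1 and Gm37376, and the 2-group fit of IgG RIT minus TBI, were added after seeing the data. Named genes are the 7 members, at most 2 called each way per gene list and contrast with the largest change, and the 3 genes most correlated with each member among those whose mean log2 CPM reached 5 (prior count 2), leaving out predicted genes and pseudogenes. The members and lists were chosen with earlier results of these data known.

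Replicate numbers were checked as pairs across groups: of 13 same-number pairs of libraries, 1 had deviations from the group means that correlated above 0.1 (range -0.0896 to 0.139), so the numbers were not treated as pairs.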

Additional observations from a re-analysis of the deposited data

How the results depend on the processing

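Of 525 recomputed log2 changes of the 7 genes in the 5 tested contrasts, 471 kept direction and side of the threshold, 12 lost a call, 26 gained one and 16 turned sign; the cause of these moves was not tested. The 16 were all of genes not called at first: Neat1 in TBI against untreated was 0.12 with RLE factors, with only these groups and in DESeq2, 0.11 without the filter, and 0.14, 0.13, 0.02 and 0.07 without untreated replicate 1 and TBI replicates 1, 3 and 5 (range -0.40 to 0.14 with a library left out); Snhg1 in IgG RIT against untreated was 0.12 with RLE factors, 0.04 without the filter, 0.19 with only these groups, 0.11 in DESeq2 and 0.02 without untreated replicate 2 (range -0.25 to 0.02); and under the term for library number the same contrast gave -0.34 for Neat1, 0.29 for Snhg12 and 0.80 for Kcnq1ot1. Among listed genes, Ddx39b was 0.01 there, Hnrnph3 in CD45 RIT was -0.06 to 1.66 against untreated and -0.01 to 1.80 against TBI, lowest without CD45 RIT replicate 2, and Ascl2 0.00 to 10.92 against TBI, lowest without replicate 1. The number of the 7 genes called in IgG RIT against untreated (1) was 2 without factors, with only these groups and in DESeq2, and 0 under the term for library number. In CD45 RIT against untreated (3) it was 6 without factors, 5 in DESeq2, 1 under the term and 3 to 7 with a library left out; against TBI (3) it was 3 to 7; against IgG RIT (2) it was 3 under the term, with Malat1 gained, 1 with RLE factors or no filter, 0 with only these groups and 1 to 6 with a library left out. With a replicate block it was 1 against IgG RIT, where Neat1 was lost, and the block changed no other member's call; over all genes the block gave 38 calls beside 926 without it for TBI and 2063 beside 3536 for IgG RIT against untreated, and 4062 beside 7116, 5098 beside 8108 and 3756 beside 8308 for CD45 RIT against untreated, IgG RIT and TBI. With only the groups compared, the counts against untreated were 3251, 6662 and 3995 for TBI, IgG RIT and CD45 RIT, and 2217 for CD45 RIT against IgG RIT; DESeq2 gave 2407 for TBI and 5898 for IgG RIT against untreated, the term for library number 19 in IgG RIT and 2458 in CD45 RIT against untreated and 4525 against TBI, and libraries numbered under 10 gave 4005 for TBI. Leaving out a library gave 422 to 826 for TBI and 1775 to 2564 for IgG RIT against untreated, and 11346 for CD45 RIT against untreated without its replicate 1. DESeq2 gave no adjusted p for Cdkn1c. Where a fit left 1 CD45 RIT library, that library was assumed to vary like the other groups. Only 2 CD45 RIT libraries, and counts of 0 to 6 in replicate 2, limit what can be said of Snhg1, Snhg6, Snhg12 and Kcnq1ot1.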
